A study of Mus musculus with 6 samples.

Results

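Hlf, Mecom, Meis1, Prdm16, Mllt3, Etv6 and Eya1 encode transcription regulators of haematopoietic stem cell (HSC) self-renewal. These 7 genes were taken by name from a table of 55357 mouse gene identifiers, and all 7 were found and passed the filter on low counts. They were compared between long-term HSCs (LT-HSCs) of 3 wild-type mice and 3 Dcaf8 knockout mice, all young, with 50 sorted bone marrow cells per library. The Dcaf8 protein presents substrates to the CUL4-DDB1 family of ubiquitin ligases. Sorted cells carried Sca-1, c-Kit and CD150 and lacked CD48 and the markers of mature lineages. The labels give neither the knockout allele nor the strain, sex or exact age of the mice, and they do not say whether the deletion is confined to blood. In bulk libraries such as these, fewer cells with a transcript and less transcript per cell cannot be told apart.

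HSCs must divide without losing the capacity to rebuild the whole blood system, and this group of nuclear factors is known for holding that state. Meis1 is a TALE homeodomain factor that binds DNA with HOX and PBX proteins. Hlf is a PAR bZIP factor whose transcript is enriched in HSCs. Mecom (also called Evi1) and Prdm16 are related PRDM zinc finger factors, and mouse HSCs that lack either are lost or function poorly. Mllt3 (AF9) is a YEATS domain reader of acylated histones that works with the super elongation and DOT1L complexes. Etv6 (TEL) is an ETS family repressor needed for adult HSC survival, and Eya1 is a transcriptional coactivator and phosphatase.

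The genes lie apart in the genome, Hlf and Meis1 on chromosome 11, Prdm16 and Mllt3 on chromosome 4, Mecom on chromosome 3, Etv6 on chromosome 6 and Eya1 on chromosome 1, which also holds Dcaf8. RefSeq start site windows of 300 bases in GRCm38.p6, from 250 bases before the start to 50 after it, were found for 6 of the 7, and 8 windows in all because Mecom and Mllt3 each have an upstream and an internal start. Eya1 had no entry. Of 26 pairs of windows from different genes, the upstream Mecom start and the Prdm16 start shared the longest run of identical letters, 24 bases. The Mecom window ends with the last base of the run, so 24 is a minimum. The next longest shared run within the windows was 11 bases, between Hlf and Prdm16. Only 2 of 32851 mouse windows held the 24-base run, on either strand. The run is shown because these relatives lay toward opposite ends of the replicate spread described below. It lies in transcribed sequence, starting 27 bases into Mecom (chr3:30509710-30509733, minus strand) and 10 bases into Prdm16 (chr4:154636841-154636864, minus strand). Each is written 5′ to 3′ with the shared bases in capitals.
Mecom: acGCGCATGTGCGAAGGTGTCCAAAC
Prdm16: gtGCGCATGTGCGAAGGTGTCCAAACtg

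The windows were searched on both strands for 10 motifs, chosen after the sequences had been read. The cAMP response element TGACGTCA was found in 1 of the 8 windows, that of Hlf, and in 1.79% of all mouse windows. It ends 1 base short of the annotated start, and the 69 bases before that start (chr11:90390918-90390986, minus strand, GRCm38.p6) are shown with the element in capitals.
Hlf: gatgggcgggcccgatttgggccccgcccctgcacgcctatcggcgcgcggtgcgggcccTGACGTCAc
The ETS motif CCGGAAGT was in the Meis1 window and in 3.89% of all windows. The MEIS motif TGACAG was in the internal windows of Mecom and Mllt3 and in 19.2% of all windows. The PBX-HOX motif TGATTTAT, the PAR bZIP motif TTANGTAA, the RUNX motif TGTGGTT, the GATA motif AGATAA and the TATA motif TATAAA were in 0 of the 8 windows, against 0.977%, 2.32%, 5.27%, 11.2% and 13.6% of all windows. GGGCGG and CCAAT were in 5 of the 8 windows each, against 35.7% and 37.4% of all. The 6 upstream windows held 15 to 30 CpG dinucleotides, against a median of 7 over all windows, and the internal windows of Mecom and Mllt3 held 9 and 4. Counts per gene do not separate the starts, so the Mds1-Evi1 and Evi1 forms of Mecom were counted together.

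Total counts were 14461864 to 22386387 per library, and 15244 genes (wild-type replicate 3) to 17015 genes had at least 1 count. Dcaf8 stood at 204 to 293 CPM (read counts scaled to a common library size, with TMM factors) in wild-type and at 38.1 to 74.3 in knockout libraries. All 10 LT-HSC markers checked were counted, among them Kit, Slamf1 and Procr. Of markers of other marrow cells, 2 of 7 B lineage genes (Pax5, Ebf1), 3 of 5 T and NK genes (Cd3e, Cd3g, Gzma) and 3 of 5 stroma and endothelium genes (Cdh5, Lepr, Cxcl12) were at 0 counts in all 6 libraries. Other members of these lists were counted, Cd79b at 62.3 to 101 CPM, Nkg7 at 72.9 to 162 CPM and Pecam1 at 44.9 to 93.2 CPM, and the lists summed to 66.0 to 102, 72.7 to 161 and 44.8 to 93.1 CPM. Lists of 7 macrophage, 5 megakaryocyte and 6 erythroid genes summed to 414 to 925, 583 to 1086 and 64.6 to 171 CPM. The highest group means in these lists were those of Lyz2 (389 to 890 CPM), Itga2b (373 to 643 CPM) and Hbb-bt (24.0 to 139 CPM). Lyz2 made up most of the macrophage sum, and Adgre1 of that list was at 0 counts in all 6 libraries. A list of 5 progenitor genes summed to 361 to 541 CPM, and 4 mast cell and eosinophil genes to 3.04 to 15.8 CPM. Cd48, the gene of a marker excluded by the sort, stood at 0.0507 to 11.9 CPM in wild-type and at 9.60 to 34.7 CPM in knockout libraries (edgeR adjusted p = 0.890). The part of these lists in the results was not tested. A list of 7 neutrophil genes summed to 6031 CPM in wild-type replicate 2 and to at most 29.4 CPM elsewhere. A list of 10 mitotic genes summed to 1694, 478 and 397 CPM in wild-type replicates 1 to 3 and to 1045, 1664 and 1141 CPM in knockout replicates 1 to 3. Knockout replicate 3 was the only library with Xist above 18 counts (1124) and held 4 counts of 4 Y-linked genes, against at least 3694 elsewhere, so the groups were not matched for sex.

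The data showed no called difference between genotypes for any of the 7 regulators. In the quasi-likelihood test of edgeR, adjusted by Benjamini-Hochberg over 14592 genes, 0 of 7 passed an adjusted p of 0.05, and 0% of all genes tested passed. Dcaf8, the deleted gene, did not pass either, with a log2 fold change of -2.28 (edgeR unadjusted p = 5.36e-05, adjusted p = 0.739). A lack of calls therefore does not show equal levels. At an unadjusted p under 0.05 there were 0 of 7, against 5.82% of all genes, and DESeq2 also called 0 of 7, against 0.934% of the genes it adjusted. Hlf, Mecom, Mllt3 and Eya1 had higher values in knockout, and Meis1, Prdm16 and Etv6 lower values. That is 4 of 7 on the higher side, where 50.9% of all genes lay. The median log2 fold change of the 7 was 0.08, against 0.01 over all genes. Groups did not overlap for 1 of the 7, Eya1, and for 10.3% of all genes. The summed counts of the 7 genes took 0.117% to 0.148% of a library.

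**Figure D1:**
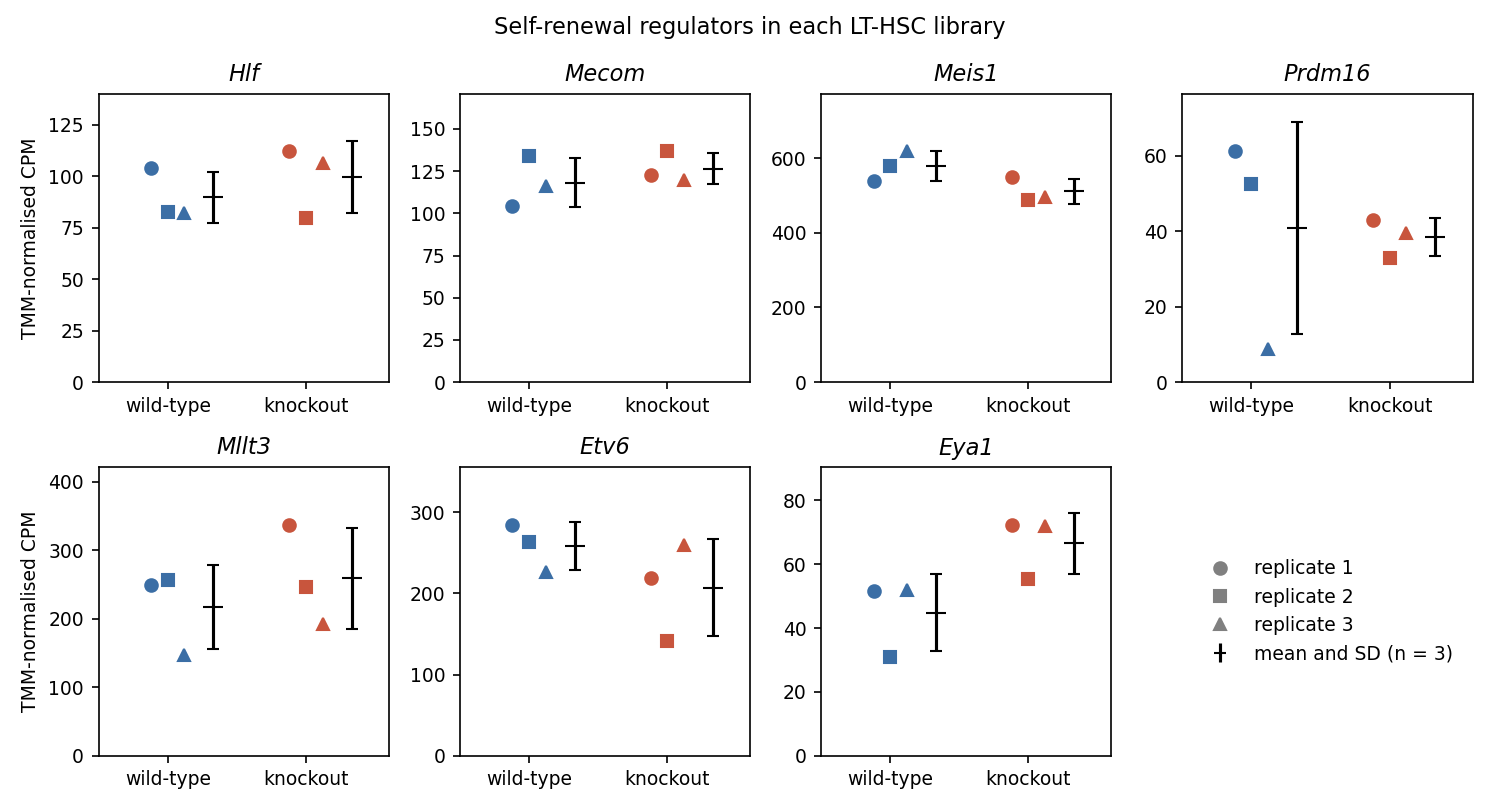
Level of each regulator in TMM-normalised CPM (vertical axes, each starting at 0) in the 3 wild-type (blue) and 3 knockout (red) libraries, with the mean and SD of each group in black. Only for Eya1 do all knockout points lie above all wild-type points, and the Prdm16 value of wild-type replicate 3, 8.73 CPM, lies far under the other 5.

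Meis1, the homeodomain factor, was the most abundant of the 7. Its level was 538, 579 and 618 CPM in wild-type replicates 1 to 3 and 548, 488 and 496 CPM in knockout replicates 1 to 3. Knockout replicate 1 lay above wild-type replicate 1, so the groups overlapped at 1 library of each. The means were 578 ± 39.9 and 511 ± 32.7 CPM (SD, n = 3 per group). The log2 fold change was -0.18 ± 0.11 (SE), with an edgeR adjusted p of 0.918. Its 95% interval of -0.43 to 0.07 spans a knockout level from 0.743 to 1.05 times the wild-type level. This was the narrowest interval of the 7. An antisense gene that overlaps Meis1 exons, Gm16140, held 3543 counts over all libraries against 64169 for Meis1, and whether the authors counted by strand is not stated in these sources.

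Hlf, the PAR bZIP factor, stood at 104, 82.7 and 82.3 CPM in wild-type and at 112, 79.6 and 107 CPM in knockout replicates 1 to 3. The lowest and the highest of the 6 values were both knockout libraries, so the wild-type values lay inside the knockout range. The means were 89.7 ± 12.5 and 99.4 ± 17.4 CPM (SD, n = 3 per group), a log2 fold change of 0.17 with a 95% interval of -0.34 to 0.69. In fold terms the interval runs from 0.790 to 1.61 (edgeR adjusted p = 0.971).

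Mecom was the steadier of the PRDM pair. It stood at 105, 134 and 116 CPM in wild-type and at 122.7, 137 and 119 CPM in knockout replicates 1 to 3, and the groups overlapped. Means were 118 ± 14.8 and 126 ± 9.21 CPM (SD, n = 3 per group). The log2 fold change was 0.08, with a 95% interval of -0.33 to 0.50 (edgeR adjusted p = 0.986). The antisense gene Mecomos, which overlaps Mecom exons, held 119 counts over all libraries against 14315 for Mecom.

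Prdm16, the other PRDM factor, varied far more between libraries of the wild-type group. Its level was 61.1, 52.4 and 8.73 CPM in wild-type replicates 1 to 3, from 1086, 1080 and 172 counts. In knockout replicates 1 to 3 it was 42.9, 32.9 and 39.5 CPM, from 979, 472 and 874 counts. All 3 knockout values lay between wild-type replicate 3 and the other wild-type libraries. The means, 40.7 ± 28.1 and 38.4 ± 5.12 CPM (SD, n = 3 per group), gave a log2 fold change of -0.05 with a 95% interval of -1.37 to 1.27, that is, 0.387 to 2.41 times the wild-type level (edgeR adjusted p = 1.00). Without wild-type replicate 3 the log2 fold change was -0.54 (edgeR unadjusted p = 0.106), and without wild-type replicate 1 it was 0.33, so its direction rests on single libraries. Wild-type replicate 3 also had the fewest detected genes and the lowest mitotic sum, and the part of these in the Prdm16 value was not tested.

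Mllt3, the YEATS domain reader, stood at 249, 256 and 147 CPM in wild-type and at 337, 247 and 192 CPM in knockout replicates 1 to 3. Wild-type replicate 3 was again the lowest library and knockout replicate 1 the highest, and the groups overlapped. Means were 217 ± 61.3 and 259 ± 73.2 CPM (SD, n = 3 per group). The log2 fold change of 0.26, with a 95% interval of -0.39 to 0.91 (edgeR adjusted p = 0.971), dropped to 0.04 when wild-type replicate 3 was left out and to 0.0011 when knockout replicate 1 was.

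Etv6, the ETS repressor, stood at 285, 263 and 227 CPM in wild-type and at 219, 142 and 260 CPM in knockout replicates 1 to 3. Knockout replicate 2, the shallowest library, was the lowest, and knockout replicate 3 lay within the wild-type range. Means were 258 ± 29.4 and 207 ± 59.99 CPM (SD, n = 3 per group). The log2 fold change was -0.30 with a 95% interval of -0.82 to 0.22 (edgeR adjusted p = 0.949), and it was -0.11 without knockout replicate 2 and -0.50 without knockout replicate 3. The antisense gene Gm17089, whose exons overlap those of Etv6, held 2533 counts against 27722 for Etv6.

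Eya1, the coactivator and phosphatase, had the largest difference of the 7. It stood at 51.7, 31.1 and 51.8 CPM in wild-type and at 72.4, 55.3 and 71.8 CPM in knockout replicates 1 to 3. Every knockout library lay above every wild-type library, by a gap between knockout replicate 2 and wild-type replicate 3 that is smaller than the SD of either group, and 5.91% of all genes tested had this order. Means were 44.9 ± 11.9 and 66.5 ± 9.68 CPM (SD, n = 3 per group). The log2 fold change was 0.60 ± 0.29 (SE), with a 95% interval of -0.08 to 1.28, or 0.944 to 2.42 times the wild-type level. It did not pass edgeR's test (unadjusted p = 0.0770, adjusted p = 0.874), and the two-sided exact permutation p was 0.1, the smallest that 3 against 3 animals can give. Without wild-type replicate 2, the library with the neutrophil transcripts, the value was 0.38.

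**Figure D2:**
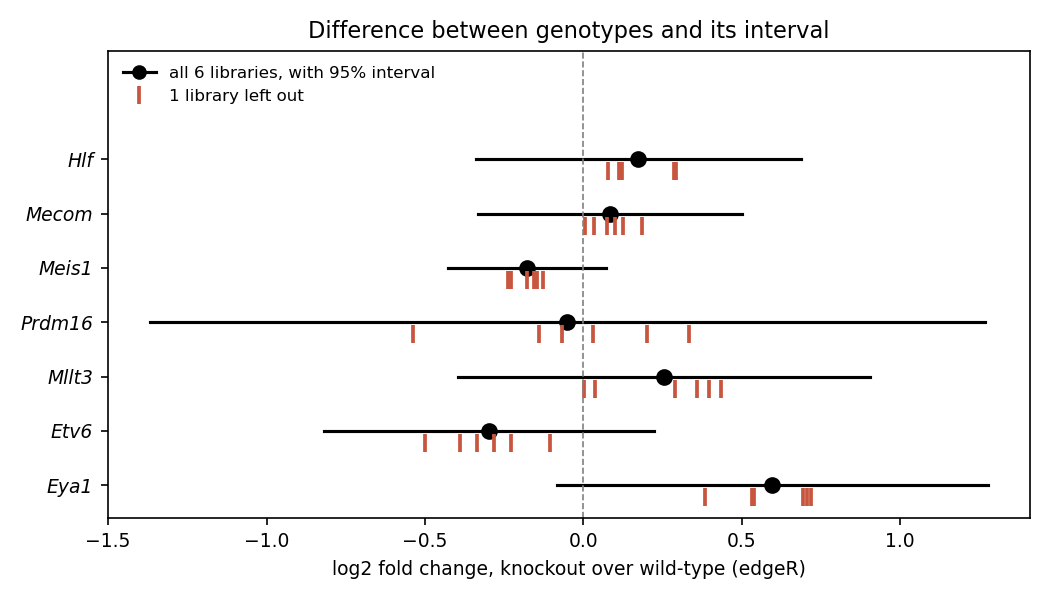
Log2 fold change of knockout over wild-type (horizontal axis) for each regulator, with the edgeR estimate and its 95% interval in black and the estimates with 1 library left out as red ticks. All 7 intervals include 0, the Meis1 interval is the narrowest (-0.43 to 0.07) and the Prdm16 interval the widest (-1.37 to 1.27).

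The regulators differed in how well 50-cell libraries of 1 genotype agreed. The pooled SD of log2 CPM within genotypes was 0.10 for Meis1, 0.15 for Mecom and 0.23 for Hlf, against a median of 0.35 over the 7083 genes with a mean of at least 30 CPM. Of those genes, 97.4%, 91.3% and 73.8% had a larger spread than Meis1, Mecom and Hlf. Etv6 (0.34), Eya1 (0.34) and Mllt3 (0.43) lay near the middle of these genes. Prdm16, at 1.11, was exceeded by 3.01% of them.

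By library, the 7 did not move as a block. Knockout replicate 1 had 6 of 7 regulators above their own mean over the libraries, Mecom among them by only 0.01 on the log2 scale. Wild-type replicate 3 had 1 of 7 above it, Meis1. Wild-type replicate 3 held the lowest value of Prdm16 and Mllt3, and knockout replicate 2 that of Hlf, Meis1 and Etv6. Over the 6 libraries Pearson's r between pairs of regulators ran from -0.63 (Mecom and Etv6) to 0.77 (Prdm16 and Mllt3), given as a description without a test. The latter was 0.14 without wild-type replicate 3.

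**Figure D3:**
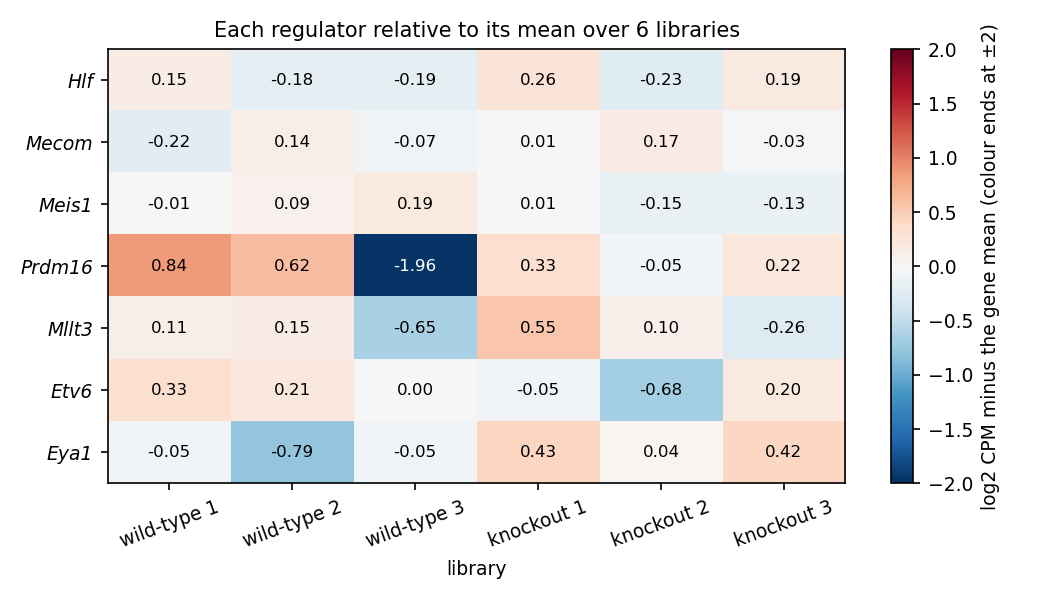
Log2 CPM of each regulator minus its mean over the 6 libraries, with red for values above the mean and blue for values under it. The darkest cell is Prdm16 in wild-type replicate 3 (-1.96), and no column is coloured 1 way throughout.

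Levels can be compared between genes only per length, here as CPM per kilobase of the longest annotated transcript. On that scale the wild-type order was Meis1 (76.6 ± 5.29), Etv6 (45.2 ± 5.14), Mllt3 (35.8 ± 10.1), Mecom (20.8 ± 2.59), Hlf (15.9 ± 2.21), Eya1 (10.3 ± 2.73) and Prdm16 (4.74 ± 3.26; SD, n = 3). Meis1 stood apart from Etv6 by more than their spread, and the libraries of Etv6 and Mllt3 overlapped. In knockout cells Mllt3 (42.6 ± 12.1) stood above Etv6 (36.2 ± 10.5), again within their spread. The knockout levels of the others were 67.6 ± 4.33 for Meis1, 22.2 ± 1.62 for Mecom, 17.6 ± 3.09 for Hlf, 15.2 ± 2.22 for Eya1 and 4.47 ± 0.595 for Prdm16 (SD, n = 3). By group means, Mecom stood at about 4 to 5 times the Prdm16 level on this scale in both genotypes. Single wild-type libraries differed widely in this ratio. Prdm16 ran from 1.01 in wild-type replicate 3 to 7.11 in wild-type replicate 1, against 18.4 to 24.0 for Mecom over all libraries.

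For each regulator the gene with the most similar profile over the 6 libraries was sought among genes with a mean of at least 10 CPM, by Pearson's r of log2 CPM. These were Tprgl for Meis1 (r = 0.99), Usp48 for Hlf (0.99), Fam84b for Mecom (0.99), Zfp110 for Prdm16 (1.00), Otud1 for Mllt3 (0.99), Zfp180 for Etv6 (1.00) and Dnm2 for Eya1 (0.99). With 9289 candidates and 6 libraries such values are reached for every regulator. The number of genes with r above 0.95 was 12 to 27 for 6 of the regulators and 146 for Prdm16. Zfp110 stood at 6.60 CPM in wild-type replicate 3 and at 46.1 to 97.5 CPM in the other libraries, the same low library as Prdm16.

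Relatives, partners and described targets of the 7 were then read in 13 lists with 119 further genes, of which 99 passed the filter. By edgeR with adjustment over all genes, 0 of 99 were called. At an unadjusted p under 0.05 there were 7 of 99 (7.07%, against 5.82% of all genes), and groups did not overlap for 11 of 99 (11.1%, against 10.3%). Higher values in knockout were found for 42 of 99 (42.4%, against 50.9%), and the median log2 fold change was -0.03.

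**Figure D4:**
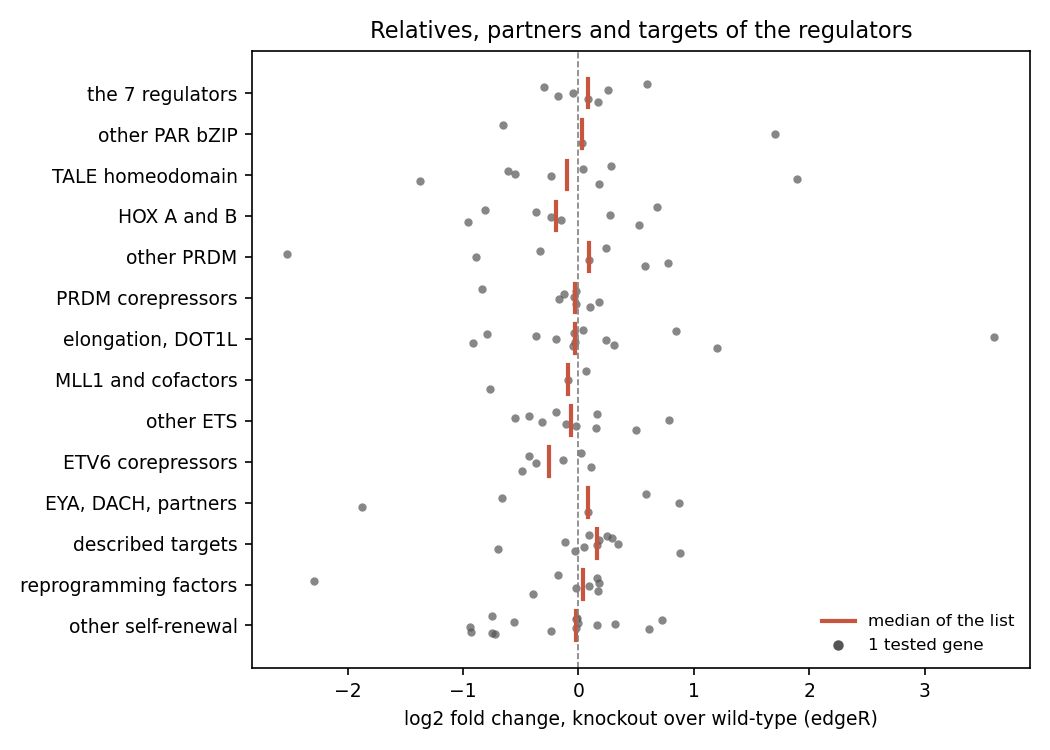
Log2 fold change of knockout over wild-type (edgeR, horizontal axis) of every tested gene in the 13 lists and of the 7 regulators, 1 grey point per gene, with list medians as red bars. Medians lie between -0.25 and 0.16, and no point passed the adjusted test.

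Among partners of Meis1, 4 of 8 tested TALE homeodomain genes had higher and 4 lower values (0 called). The Pbx3 means were 2.30 ± 1.997 CPM for wild-type and 8.92 ± 4.01 CPM for knockout (SD, n = 3). Pbx3 had 0, 68 and 71 counts in wild-type replicates 1 to 3. The Pbx2 means were 4.90 ± 1.77 and 1.74 ± 1.81 CPM. Pknox1 and Tgif2 had log2 fold changes of -0.61 and 0.28. Meis2 and Pknox2 had 0 counts in all 6 libraries, so the MEIS class of these cells was counted on Meis1, with Meis3 at 0 to 14.8 CPM. Of 8 tested HOX genes 3 had higher and 5 lower values (0 called). Hoxa9, which binds DNA together with Meis1, stood at 187, 175 and 165 CPM in wild-type and at 150, 138 and 157 CPM in knockout replicates 1 to 3. These groups did not overlap, with a log2 fold change of -0.24 ± 0.15 (SE) and an edgeR adjusted p of 0.922. Hoxb5, Hoxa5 and Hoxa10 had log2 fold changes of 0.68, 0.53 and 0.28.

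MLL1 with menin maintains Hox and Meis1 transcription. Its gene Kmt2a stood at 39.4, 27.1 and 32.1 CPM in wild-type and at 22.9, 13.6 and 19.4 CPM in knockout replicates 1 to 3, without overlap (log2 fold change -0.76, edgeR adjusted p = 0.874), and Men1 at 162 ± 39.5 and 152 ± 14.7 CPM (SD, n = 3). Of its 3 listed genes 1 had a higher and 2 a lower value (0 called).

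Among the 13 tested genes of the elongation and DOT1L complexes that Mllt3 joins, 6 had higher and 7 lower values (0 called). Mllt1 (ENL), the closest relative of Mllt3, stood at 9.12, 10.6 and 14.9 CPM in wild-type and at 32.7, 22.8 and 23.3 CPM in knockout replicates 1 to 3. The groups did not overlap (log2 fold change 1.20 ± 0.42, SE; edgeR adjusted p = 0.789). Ccnt1, the cyclin T1 subunit of P-TEFb, had 125, 126 and 171 CPM in the wild-type libraries against 101, 69.7 and 70.8 CPM in the knockout libraries, again with no overlap (log2 fold change -0.79 ± 0.24, SE; edgeR adjusted p = 0.744). Its kinase partner gene Cdk9 had a log2 fold change of -0.37, the scaffold gene Aff4 one of -0.91, and Eaf2 was at 0 counts in 3 libraries.

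Of 7 tested PRDM genes besides Mecom and Prdm16, 4 had higher and 3 lower values (0 called). The Prdm10 means were 8.75 ± 0.926 CPM for wild-type and 1.81 ± 1.992 CPM for knockout (SD, n = 3). Prdm10 had 32, 57 and 1 counts in knockout replicates 1 to 3. The Prdm4 means were 41.7 ± 8.80 and 69.0 ± 31.0 CPM. Prdm9 and Prdm2 had log2 fold changes of -0.89 and 0.58. Among the corepressors that Mecom and Prdm16 bind, 2 of 8 had higher and 6 lower values (0 called). The histone H3K9 methyltransferase gene Ehmt2 stood at 37.3, 80.5 and 56.3 CPM in wild-type and at 36.6, 29.1 and 31.6 CPM in knockout replicates 1 to 3, and wild-type replicate 1 lay just above knockout replicate 1. Ctbp1, which binds both PRDM factors, stood at 394 ± 38.0 and 424 ± 40.9 CPM.

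Other PAR bZIP genes and their antagonist Nfil3 were uneven between libraries. Tef stood at 24.1, 2.71 and 0.0507 CPM in wild-type and at 37.7, 20.05 and 22.2 CPM in knockout replicates 1 to 3 (edgeR adjusted p = 0.874). Nfil3 stood at 0.0507 CPM in wild-type replicate 3 and at 3.90 to 21.6 CPM elsewhere. Of the 3 genes 2 had higher and 1 a lower value (0 called).

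Among 10 other ETS factors 4 had higher and 6 lower values (0 called), and Ets2, Elf1, Fli1 and Elf2 had log2 fold changes of -0.42, -0.11, 0.15 and -0.32. Among Etv6 corepressors 2 of 6 tested had higher and 4 lower values (0 called). Ncor1 stood at 189, 306 and 292 CPM in wild-type and at 200, 192 and 169 CPM in knockout replicates 1 to 3, where wild-type replicate 1 lay within the knockout range (log2 fold change -0.49). Tbl1x had a log2 fold change of -0.43.

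In the group of Eya and Dach genes and their DNA-binding partners 3 of 5 tested genes had higher and 2 lower values (0 called). Eya2 was counted at a higher level than Eya3, 150 ± 9.85 and 158 ± 45.0 CPM in wild-type and knockout for Eya2 (SD, n = 3), though these CPM are not scaled for length. Eya3 stood at 22.7, 6.21 and 55.4 CPM in wild-type and at 6.01, 6.13 and 10.3 CPM in knockout replicates 1 to 3. Eya4 had 0 counts in all libraries, and Six5, the only homeobox gene of this group that passed the filter, stood at 9.38 ± 4.02 and 18.2 ± 5.55 CPM (edgeR adjusted p = 0.905), with the highest wild-type library at 13.62 and the lowest knockout library at 13.66 CPM. Dach1 and Dach2 had log2 fold changes of -0.66 and 0.58.

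Of 11 genes described as targets of Meis1 or Mecom, 8 had higher and 3 lower values (0 called), with a median of 0.16. Hif1a, a described Meis1 target and hypoxia regulator, stood at 105, 40.4 and 16.6 CPM in wild-type and at 148, 58.9 and 76.4 CPM in knockout replicates 1 to 3. Syk and Itga6 had log2 fold changes of 0.35 and 0.25. Among the 8 factors described as reprogramming blood cells to stem cells, which include Hlf and Meis1, 4 had higher and 4 lower values (0 called). Zfp37 stood at 10.7, 8.87 and 25.1 CPM in wild-type and at 7.93, 0 and 0 CPM in knockout replicates 1 to 3 (edgeR adjusted p = 0.857). Of 15 other self-renewal regulators 4 had higher and 11 lower values (0 called), with a median log2 fold change of -0.02. The 4 named next had the smallest unadjusted p of this list in edgeR, and all were on the lower side. Tcf15, which marks quiescent HSCs, had 29.3, 42.1 and 53.6 CPM in the wild-type libraries against 28.5, 16.6 and 19.0 CPM in the knockout libraries (log2 fold change -0.94 ± 0.39, SE; edgeR adjusted p = 0.841). Msi2, Bmi1 and Gfi1 had log2 fold changes of -0.93, -0.75 and -0.73, with overlap between groups in each.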

How the data were processed

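The authors deposited 1 table of raw read counts per Ensembl gene, with 1 column per library. Amplified cDNA of 50 cells was tagmented and sequenced, per the labels' protocols. Trimmomatic 0.39, HISAT2 2.2.1, Picard 2.26.1, HTSeq 1.99.2, DESeq2 1.38.3 and build mm39 are named without roles, per the submitters' processing notes. Reads carry no molecular identifiers, and depth intervals would cover counting error only.

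All genes were fitted with edgeR 4.0.16 (R 4.3.3): filterByExpr (minimum count 10, minimum total 15), TMM factors, robust quasi-likelihood fit (legacy off), genotype as the only term. Benjamini-Hochberg adjustment ran over 14592 genes with a threshold of 0.05. Standard errors came from the F statistic and 95% intervals from the t distribution with edgeR's total degrees of freedom. Spreads, correlations and permutation tests used log2 CPM with a prior count of 2. Lists of marker genes were summed as CPM of total counts. The edgeR fit was also run on simulated negative binomial counts as a check of the code. That check does not show that real differences in these libraries would be called. Alternatives were RLE and upper-quartile factors, other filters, DESeq2 1.42.0, limma-voom (limma 3.58.1), the legacy fit, a replicate block and leaving out each library. Lengths came from GENCODE M21 and start windows from RefSeq, both on GRCm38; no coordinates were joined to the counts.

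The members, lists and tests were chosen with earlier results of these data known. Named were the 7 regulators, the 2 genes of each list (4 for lists of 10 or more) with the smallest p, the closest profile per regulator (unnamed gene models left out), markers and Dcaf8. Cdk9, Meis3, Eya2, the antisense genes and the genes at 0 counts were named after their values were seen. Some list genes are not reported here.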

Additional observations from a re-analysis of the deposited data

How the results depend on the processing

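Over 14 alternative settings 0 of the 7 regulators and 0 genes of the 13 lists were called, and the smallest adjusted p of any regulator was 0.566 (Eya1). Over all genes the DESeq2 fit called 154, against 0 by edgeR. Hlf, Mecom, Meis1, Mllt3, Etv6 and Eya1 kept their direction in all 14 settings. The Prdm16 log2 fold change, -0.05, turned to 0.061 with limma-voom and sample weights and to 0.027 with the replicate block; leaving out 1 library moved it from -0.54 to 0.33, and the cause was not tested. No pairing of the samples by replicate number is stated. Correlations of deviations between same-numbered libraries were 0.06, -0.04 and 0.01 for replicates 1, 2 and 3. With 3 libraries per group these values cannot show whether a pairing existed, and the replicate block changed no call. Other leave-one-out ranges were 0.08 to 0.29 for Hlf, 0.0042 to 0.19 for Mecom, -0.24 to -0.13 for Meis1, 0.0011 to 0.44 for Mllt3, -0.50 to -0.11 for Etv6 and 0.38 to 0.72 for Eya1. Per kilobase of coding length the wild-type levels were 415 for Meis1, 177 for Etv6, 127 for Mllt3, 101 for Hlf, 37.5 for Mecom, 25.3 for Eya1 and 10.6 for Prdm16, so Hlf passed Mecom in the order. Of 182 list medians under alternatives 179 moved by less than the spread between replicates, and 3 moved by more. The median of the Eya and Dach list went from 0.08 to -0.84 with limma-voom, and was -0.30 with the strict filter, within its spread. That of MLL1 and cofactors went from -0.09 to -0.26 without wild-type replicate 3. That of the PRDM corepressors went from -0.03 to 0.11 without wild-type replicate 1. Medians that moved by less than the spread could still change sign. The PAR bZIP median went from 0.03 to -0.23 without knockout replicate 3, and the HOX median from -0.19 to 0.07 with limma-voom. With a minimum of 50 CPM the closest profile changed for Mecom (to Tspan31) and Mllt3 (to Abhd16a). The table does not separate transcripts, so isoform changes of Mecom or Mllt3 could not be read at any depth.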

Other observations

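Values more than 3-fold under those of all other libraries were counted per library, a rule set after the data were seen. Among the 7083 genes with a mean of at least 30 CPM, wild-type replicate 3 had 133 such genes (1.88%), Prdm16 among them, and the other libraries had 8 to 33. Among the 99 tested genes of the 13 lists, with no minimum level set, wild-type replicate 3 had 7 and the other libraries had 0 to 3. The 7 were Aff1, Elf4, Ikzf2, Nfil3, Prdm15, Satb1 and Tef. All 7 had group means under 30 CPM, so this count cannot be compared with the share of 1.88%.

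The antisense gene Gm16140, which overlaps Meis1, stood at 31.9, 34.3 and 11.9 CPM in wild-type and at 33.8, 24.7 and 41.1 CPM in knockout replicates 1 to 3. Its lowest library, wild-type replicate 3, was the highest for Meis1 (618 CPM). Its next lowest, knockout replicate 2, was the lowest for Meis1 (488 CPM), so the libraries showed no single relation between these genes. Of the LT-HSC markers, Ctnnal1, which encodes alpha-catulin, stood at 80.3, 97.9 and 88.0 CPM in wild-type and at 160, 114 and 137 CPM in knockout, and Ly6a, which encodes the sort marker Sca-1, at 131, 138 and 169 CPM and at 175, 217 and 215 CPM. Neither passed edgeR's test over all genes (adjusted p = 0.752 and 0.837).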
